A study of Sus scrofa with 6 samples.

Results

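Solute carrier (SLC) genes were compared between mature oocytes, the egg cells, of prepubertal and adult pigs. They were taken as the array's probe sets whose single annotated symbol begins with SLC and a family number, leaving out the glucose transporters of SLC2A and the mitochondrial carriers of SLC25A. This gave 139 of 23999 probe sets, for 91 genes of 35 families. The set was named for the plasma membrane, but it also holds 15 genes of families that act in the Golgi, endoplasmic reticulum, vesicles or lysosome, and 2 adaptor proteins that carry nothing, SLC9A3R1 and SLC9A3R2.

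The prepubertal group was 3 arrays of oocytes from gilts, called developmentally incompetent in the labels, and the adult group 3 arrays of oocytes from sows, called competent. All 6 are labelled as biological replicates, and neither breed, exact age nor the number of animals or oocytes per array is given, so a p-value here reflects variation among these arrays, which may be technical. Oocytes of both groups came from follicles of 2 to 6 mm, were matured in culture for 42 to 44 h, were stripped of cumulus cells with hyaluronidase and vortexing, were examined for a first polar body and are labelled as metaphase II. The contrast addresses how the mRNA store of eggs with low developmental capacity differs from that of eggs with high capacity.

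Solute carriers are membrane proteins that move amino acids, ions, metals, nucleosides and other small molecules across membranes, by exchange or by coupling to a gradient of sodium or protons. A growing oocyte receives much of its amino acid and nucleotide supply from cumulus cells through gap junctions. Once these are lost at maturation, the egg depends on its own carriers for uptake, for control of its volume and pH, and for the zinc and calcium movements of fertilization.

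In these eggs 22 of the 91 solute carrier genes stood above background on all 6 arrays. Among them were 7 of 21 genes classed as amino acid and peptide carriers, 6 of 13 metal carriers and 5 of 12 ion carriers. They held 0 of 2 monocarboxylate carriers of family SLC16, 0 of 5 sugar, iodide and vitamin carriers of family SLC5 and 0 of 3 nucleoside carriers. Classes go by family, so the 21 include the serotonin carrier SLC6A4 and the creatine carrier SLC6A8. The glutamine exchanger SLC1A5, the copper carrier SLC31A2 and SLC46A2 each had a probe set with signals above 1000 on every array. No carrier passed the test between prepubertal and adult oocytes: 0 of the 69 solute carrier probe sets tested reached an adjusted p of 0.05 in limma, as deposited or after quantile normalization, against 0.475% and 0.117% of all probe sets tested. The lowest adjusted p belonged to the calcium exchanger SLC8A1 as deposited (0.181, limma), with lower values in prepubertal oocytes, and to SLC1A5 after quantile normalization (0.192, limma), with higher values.

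The arrays had different overall levels. The 2% trimmed mean signal lay between 105 and 131 on prepubertal arrays and between 121 and 160 on adult arrays, and the median log2 difference of all 12000 probe sets tested, prepubertal minus adult, was −0.20 for the deposited signals. Quantile normalization, which gives all arrays one distribution, brought it to −0.01. For probe sets above background on all arrays, log2 differences are therefore given in both settings, where the second value follows quantile normalization. For dimmer ones signals alone are given, since a difference between values at the floor cannot be read. The oocyte markers GDF9, BMP15, ZP2, ZP3 and ZP4 stood above background on all 6 arrays, and KIT did not. Of 19 cumulus and granulosa markers measured, 3 did so (FST, INHBA and SERPINE2). NR5A1 exceeded background on 5 of 6 arrays, HSD3B1 on 4, INHA on 3, and LHCGR, INHBB and PAPPA on 1 each. FSHR, CYP19A1, CYP11A1, STAR, PTGS2, TNFAIP6, PTX3, AMH, FOXL2 and GJA1 lay under it on every array. The summed signal of the 19 was 449 to 538 on prepubertal and 472 to 650 on adult arrays, with a difference of −0.26 in log2 (2-sided exact permutation p = 0.2, where 0.1 is the smallest that 3 against 3 arrays allow). After quantile normalization it was −0.05 (exact permutation p = 0.7). Of 4 blood and immune markers 1 stood above background, the haemoglobin gene HBB, and their summed signal was 156 to 392 on prepubertal and 272 to 497 on adult arrays (log2 difference −0.61, exact permutation p = 0.3, and −0.37, p = 0.4, after quantile normalization). Of 7 theca and stroma markers 1 did, COL1A2, with sums of 76.1 to 130 on prepubertal and 107 to 162 on adult arrays (−0.40, exact permutation p = 0.3, and −0.23, p = 0.6). Of 4 endothelial markers 1 did, PECAM1, with sums of 71.1 to 92.5 on prepubertal and 78.5 to 99.8 on adult arrays (−0.15, exact permutation p = 0.4, and 0.02, p = 1). The part of these markers in the carrier signals was not tested.

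Background was read from 66 probe sets of 56 genes that belong to other organs, such as liver, muscle, pancreas and mammary gland. Its level, the 90th percentile of their signals on each array, was 29.0 to 35.1. A gene counted as above background where a probe set of it exceeded that level on all 6 arrays. By this measure 22 of the 91 solute carrier genes stood above background in the egg, 34 did so on some arrays only and 35 on none. Counted by probe set, 25 of 139 (18.0%) were above background, against 28.4% of all probe sets on the array. Of the genes above background, 13 had a further probe set that was not. A signal under this level does not show that a gene is silent, since a probe set can bind its target poorly, and signals of different probe sets do not rank their genes.

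**Figure D1:**
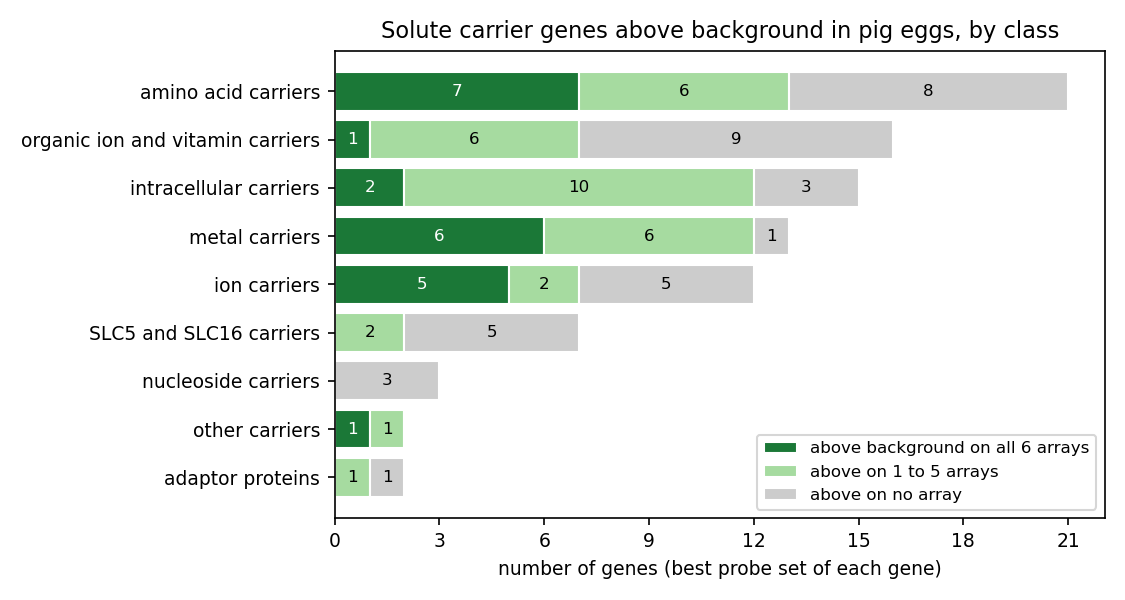
Number of solute carrier genes in each class (bars, horizontal axis), split by whether the best probe set of a gene exceeded the background level on all 6 arrays, on 1 to 5, or on none. Amino acid, metal and ion carriers hold 7, 6 and 5 of the 22 genes above background on all arrays, and the SLC5 and SLC16 families and the nucleoside carriers hold 0.

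Amino acid and peptide carriers supplied 7 of the 22 genes. SLC1A5, a sodium-dependent exchanger of glutamine and other neutral amino acids, had signals of 1781, 1628 and 1905 on the prepubertal arrays and 1698, 1507 and 1489 on the adult arrays. The ranges overlapped as deposited. SLC7A1, the carrier of arginine and lysine, had 326, 291 and 374 in prepubertal and 331, 316 and 453 in adult oocytes, again overlapping. SLC7A7, the light chain of an exchanger of cationic and neutral amino acids, had 165, 154 and 171 in prepubertal and 198, 160 and 183 in adult oocytes, and a dimmer second probe set under background on all arrays. The log2 differences of SLC7A1 and SLC7A7 were −0.13 each as deposited and 0.15 and 0.13 after quantile normalization, so their sign depended on the setting.

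The other amino acid carriers above background were of varied kinds. SLC38A9, which sits on the lysosome and reports arginine to the growth kinase mTORC1, had 2 probe sets above background, at 435 ± 41.5 and 80.7 ± 20.1 in prepubertal and 510 ± 73.5 and 114 ± 35.9 in adult oocytes (each ± is the SD over 3 arrays). Its log2 differences were −0.21 and −0.41, and 0.07 and −0.22 after quantile normalization. SLC15A1, a proton-coupled carrier of di- and tripeptides, had 137 ± 42.2 in prepubertal and 150 ± 22.1 in adult oocytes (log2 difference −0.15, then 0.08). SLC3A1, the heavy chain that pairs with the cystine carrier SLC7A9, had 67.3 ± 29.3 in prepubertal and 83.6 ± 25.8 in adult oocytes on its brighter probe set (−0.28, then −0.12), while SLC7A9 itself lay under background on every array. SLC1A1, the glutamate and aspartate carrier, had 49.8 ± 10.7 in prepubertal and 52.0 ± 3.77 in adult oocytes on 1 of its 5 probe sets (−0.06, then 0.11), and the other 4 lay under background on every array.

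SLC3A2, the heavy chain that SLC7A7 and other light chains need to reach the cell surface, was above background on 4 of 6 arrays. Its signals were 55.0, 16.2 and 7.35 in prepubertal and 50.5, 46.2 and 29.1 in adult oocytes, so that 1 prepubertal array exceeded all adult ones and the other 2 lay below them. It did not pass the threshold (limma, adjusted p = 0.402). Without prepubertal replicate 1 it did (limma, adjusted p = 0.0418; 0.0418 to 0.926 over its 22 alternatives), in a fit where 5.14% of all probe sets passed, but both prepubertal arrays left were then under background, so no size is given. SLC1A4, a carrier of neutral amino acids, had signals of at most 16.4 and exceeded background on no array, as did SLC1A2, SLC1A6, SLC6A14, SLC7A4, SLC15A2 and SLC36A2. The glutamate carrier SLC1A3 exceeded it on 1 adult array. The creatine carrier SLC6A8 also exceeded it on 1 adult array. The serotonin carrier SLC6A4 had 4.04, 17.0 and 9.94 in prepubertal and 19.0, 23.8 and 34.6 in adult oocytes, without overlap but under background on 5 of 6 arrays. For SLC6A6, SLC6A9, SLC7A5, SLC7A6, SLC7A11, SLC38A2 and SLC38A3 no probe set was analysed here.

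**Figure D2:**
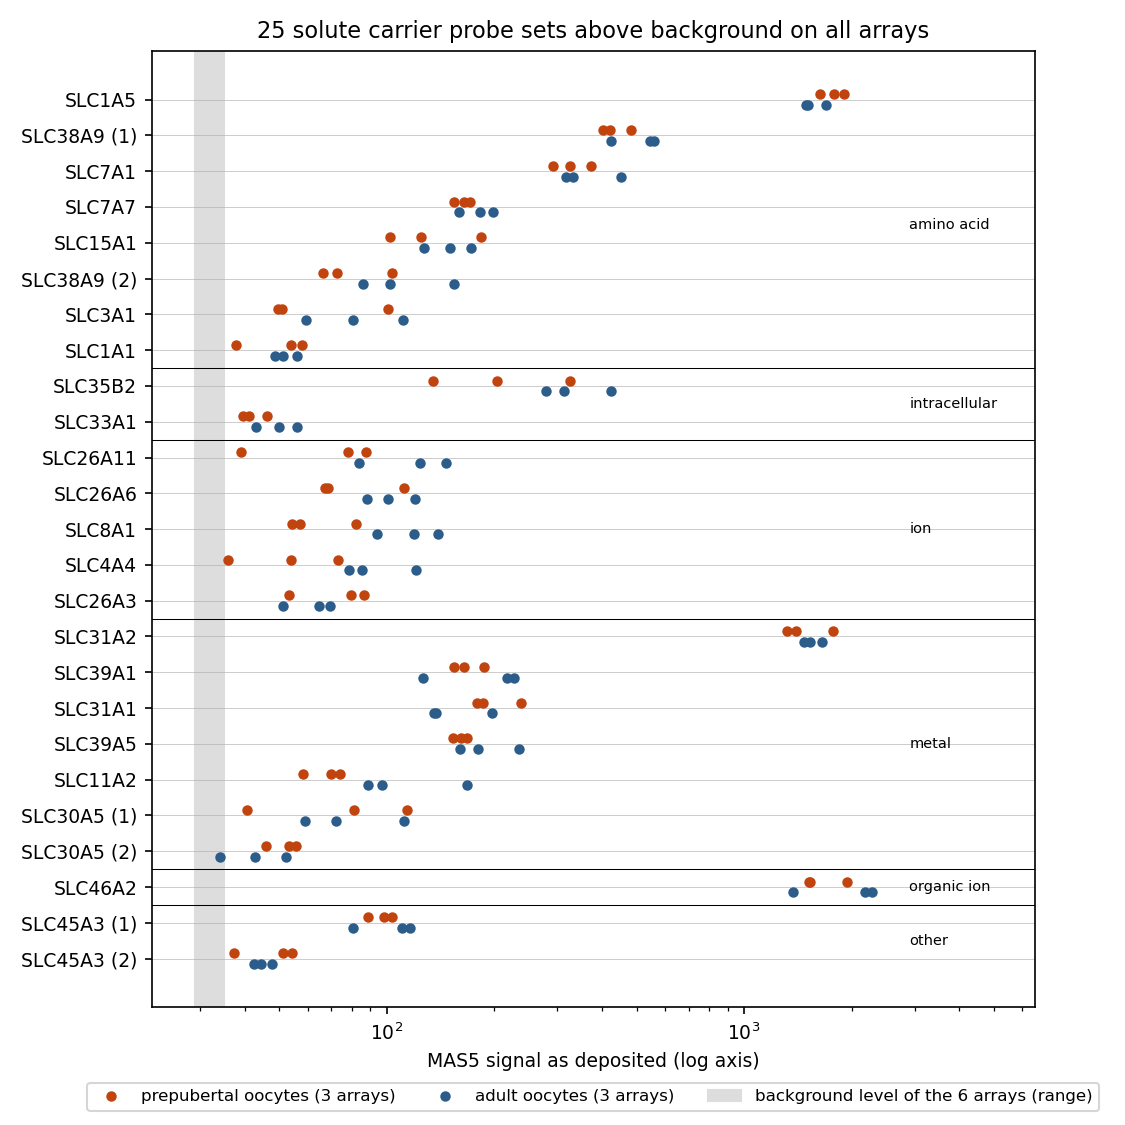
MAS5 signal as deposited (horizontal log axis) of the 25 solute carrier probe sets above background on all arrays, grouped by class, with prepubertal arrays (upper row of points) and adult arrays (lower row); numbers in brackets tell apart probe sets of one gene, the brighter first. SLC1A5, SLC31A2 and SLC46A2 lie above 1000 on every array, and the grey band marks the background levels of 29.0 to 35.1.

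The monocarboxylate family SLC16 was measured through 2 genes, and 0 of them stood above background on all arrays. SLC16A3, the lactate exporter MCT4, had signals of at most 15.1 on every array, and SLC16A13, a further member of the monocarboxylate family, exceeded background on 1 array, at 33.1 in prepubertal replicate 3. Of the sodium-coupled family SLC5, whose 5 genes here carry no monocarboxylate as their main substrate, the sugar carriers SLC5A1 and SLC5A4, the iodide carrier SLC5A5 and the vitamin carrier SLC5A6 exceeded background on no array. The sugar carrier SLC5A10 had 25.7, 14.8 and 51.5 in prepubertal and 62.1, 52.7 and 42.0 in adult oocytes, above background on 1 prepubertal and 3 adult arrays. For SLC16A1 and SLC16A7, the other lactate and pyruvate carriers sought, no probe set was analysed here.

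The nucleoside carriers SLC28A1, SLC28A3 and SLC29A1 exceeded background on no array. SLC29A1, the equilibrative carrier ENT1, had signals of 2.81, 2.21 and 2.96 in prepubertal and 2.64, 1.10 and 4.49 in adult oocytes. SLC28A3, a concentrative carrier, had 17.5, 14.4 and 6.83 in prepubertal and 14.4, 25.6 and 14.8 in adult oocytes. SLC28A1, of the same family, had signals of at most 5.91. None of the 3 probe sets passed the filter on low signals, so none was tested. For SLC29A2 no probe set was analysed here.

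Of 12 ion carrier genes 5 stood above background on all arrays. As deposited, the largest difference among the 25 probe sets above background was in SLC8A1, and after quantile normalization it was in SLC31A1. SLC8A1 is the plasma membrane exchanger of sodium for calcium. Its signals were 81.8, 54.4 and 57.1 in prepubertal oocytes, against 119, 139 and 93.7 in adult oocytes, without overlap. On the scale of log2(signal + 16), on which all differences and folds here are given, the difference between means was tested. Prepubertal oocytes averaged 64.4 ± 15.1 and adult oocytes 117 ± 22.9 (SD over 3 arrays), and the log2 difference was −0.73 ± 0.24, 1.66-fold lower (SE; 95% interval −1.22 to −0.24). It did not pass the threshold over all probe sets (limma, unadjusted p = 0.00538, adjusted p = 0.181), nor after quantile normalization (1.47-fold lower values, limma adjusted p = 0.378). Without prepubertal replicate 1, whose signal was the highest of its group, the difference was −0.88 and passed (limma, adjusted p = 0.0344). In that fit 5.14% of all probe sets passed, against 0.475% with all arrays. Over the 23 alternatives the limma adjusted p ran from 0.0344 to 0.735, all 23 with lower values.

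SLC4A4, an importer of sodium with bicarbonate, also had lower values without overlap as deposited. Its signals were 54.1, 36.0 and 73.1 in prepubertal and 85.2, 78.5 and 121 in adult oocytes, a log2 difference of −0.67 ± 0.25 (limma, adjusted p = 0.237) and −0.51 after quantile normalization (adjusted p = 0.460), where the groups overlapped. A second SLC4A4 probe set lay under background on every array. SLC26A11, a chloride and sulfate carrier, had 87.5, 77.8 and 39.0 in prepubertal and 123, 83.8 and 147 in adult oocytes, with 1 prepubertal array above the lowest adult one. Its log2 difference was −0.69 ± 0.27 (limma, adjusted p = 0.246), and −0.51 after quantile normalization (adjusted p = 0.493). Without prepubertal replicate 3 it was −0.41, and the adjusted p ran over 0.00909 to 0.826 across 23 alternatives. A dimmer SLC26A11 probe set was above background on 1 prepubertal and 1 adult array, and its means went the other way. It had 29.5, 27.6 and 21.8 in prepubertal and 2.51, 12.8 and 34.0 in adult oocytes, with overlap.

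The remaining ion carriers above background were both anion exchangers. SLC26A6, which exchanges chloride for bicarbonate and oxalate, had 82.3 ± 25.3 in prepubertal and 103 ± 16.2 in adult oocytes (log2 difference −0.30, −0.11 after quantile normalization). SLC26A3, a chloride and bicarbonate exchanger, had 72.9 ± 17.2 in prepubertal and 61.7 ± 9.34 in adult oocytes (log2 difference 0.18, and 0.35 after quantile normalization). SLC8B1, the sodium and calcium exchanger of mitochondria, missed background on 1 prepubertal array, with 38.4, 30.4 and 36.9 in prepubertal and 48.0, 44.4 and 59.2 in adult oocytes. SLC9A5, a sodium and proton exchanger, had 2 probe sets, each above background on 4 of 6 arrays. Their signals were 30.8, 63.5 and 38.7 in prepubertal and 13.5, 16.8 and 44.0 in adult oocytes for the first, and 26.3, 35.2 and 49.7 in prepubertal and 53.6, 27.9 and 46.6 in adult oocytes for the second, with overlap in both. The anion exchanger SLC4A2 and the cotransporter SLC12A4 exceeded background on no array. For SLC12A2 no probe set was analysed here.

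**Figure D3:**
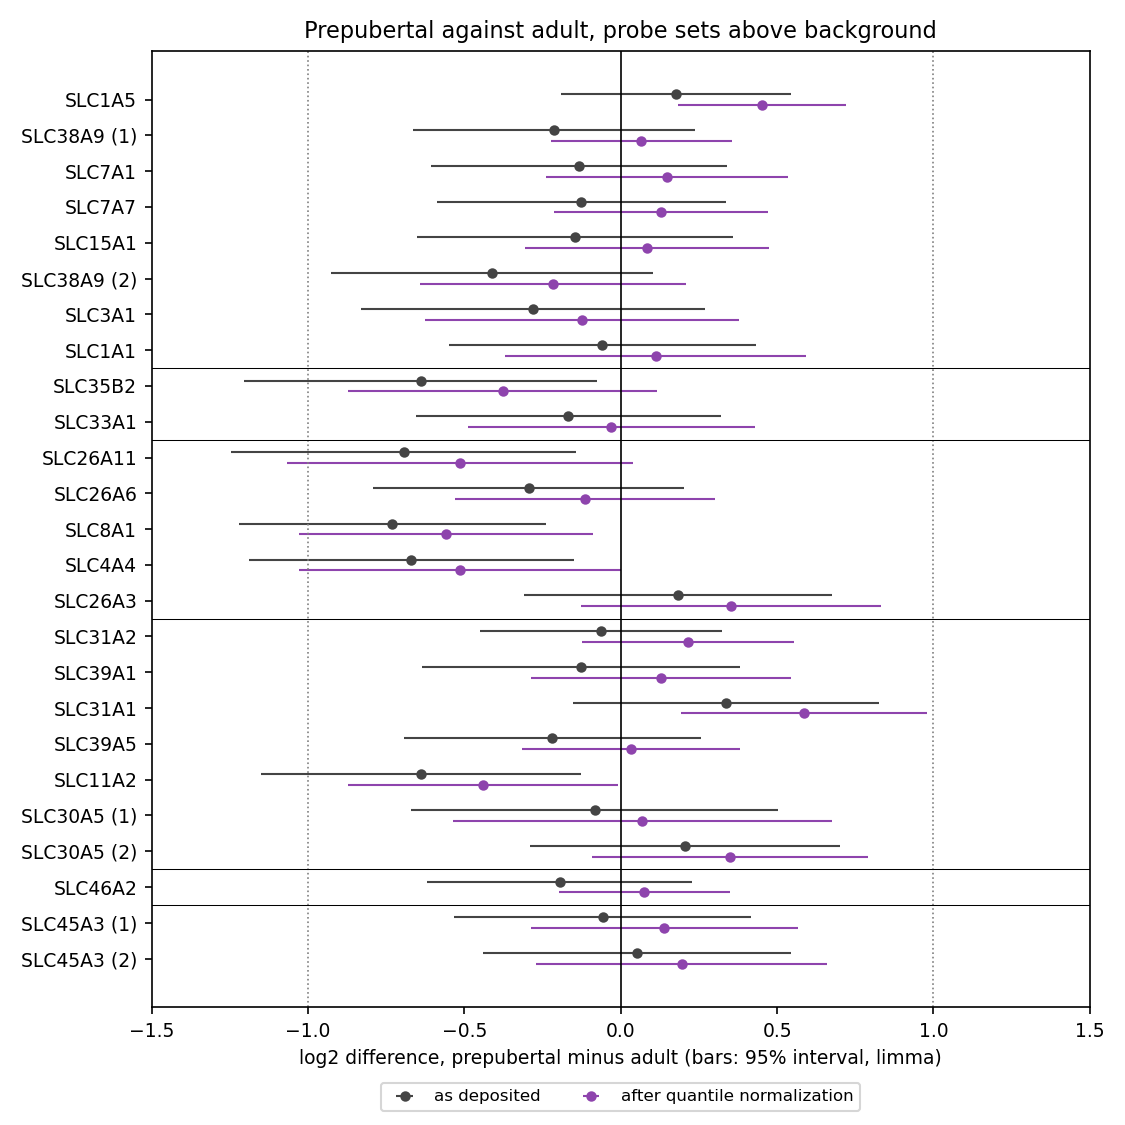
Log2 difference between prepubertal and adult oocytes (horizontal axis, prepubertal minus adult; points with 95% intervals from limma) for the 25 probe sets above background, as deposited (upper, grey) and after quantile normalization (lower, purple); dotted lines mark 2-fold. The 5 intervals that reach 2-fold lower as deposited belong to SLC8A1, SLC4A4, SLC26A11, SLC11A2 and SLC35B2, and after quantile normalization 16 of the 25 points lie above 0.

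Metal carriers supplied 6 of the 22 genes above background, of 13 measured. SLC31A2, which releases copper from endosomes and lysosomes, had signals of 1314, 1393 and 1769 in prepubertal and 1649, 1467 and 1531 in adult oocytes, with overlap. Its log2 difference was −0.06 as deposited and 0.22 after quantile normalization. A second SLC31A2 probe set lay under background on every array. SLC31A1, the copper importer of the cell surface, had 186, 178 and 238 in prepubertal and 197, 137 and 136 in adult oocytes. Only adult replicate 1 lay within the prepubertal range. Its log2 difference was 0.34 ± 0.24 as deposited (1.26-fold higher values, limma adjusted p = 0.513) and 0.59 after quantile normalization, where the groups did not overlap (1.502-fold, limma unadjusted p = 0.00684, adjusted p = 0.251). Without prepubertal replicate 3 it was 0.22 as deposited. A second SLC31A1 probe set lay under background on every array.

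SLC11A2, the proton-coupled importer of iron and other divalent metals, had lower values without overlap in both settings. Its signals were 74.0, 69.7 and 58.4 in prepubertal and 168, 88.5 and 97.2 in adult oocytes, 1.56-fold lower, with a log2 difference of −0.64 ± 0.25 (limma, adjusted p = 0.251), and 1.36-fold lower after quantile normalization (adjusted p = 0.453). Without adult replicate 1, the highest array, the log2 difference was −0.39. The 3 other SLC11A2 probe sets lay under background on every array. Of the zinc importers, SLC39A1 had 168 ± 16.8 in prepubertal and 191 ± 55.6 in adult oocytes, and SLC39A5 had 161 ± 7.01 in prepubertal and 192 ± 38.6 in adult oocytes. Their log2 differences of −0.13 and −0.22 were 0.13 and 0.03 after quantile normalization. A second SLC39A1 probe set, above background on 3 prepubertal and 1 adult arrays, went the other way. It had 40.5 ± 10.7 in prepubertal and 31.7 ± 3.18 in adult oocytes, with overlap. SLC30A5, which loads zinc into the secretory pathway, had 2 probe sets above background, at 78.4 ± 36.7 and 51.7 ± 5.03 in prepubertal and 81.1 ± 27.6 and 43.1 ± 9.04 in adult oocytes, with log2 differences of −0.08 and 0.21, and 0.07 and 0.35 after quantile normalization. The zinc importer SLC39A2 had 3.81, 16.3 and 21.1 in prepubertal and 34.0, 24.98 and 34.7 in adult oocytes, without overlap but above background on 1 adult array only. For SLC39A6 and SLC39A10 no probe set was analysed here.

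Of 16 organic ion and vitamin carriers only SLC46A2, known from thymic stroma in the mouse, stood above background on all arrays. It had 1938, 1524 and 1531 in prepubertal and 2286, 1370 and 2175 in adult oocytes, with overlap (log2 difference −0.20, and 0.08 after quantile normalization). SLC22A5, the carnitine importer, was above background on 3 prepubertal and 1 adult arrays, at 47.4, 45.0 and 35.8 in prepubertal and 43.5, 26.2 and 22.8 in adult oocytes. The organic anion carrier SLC22A6 had 36.9, 42.2 and 40.3 in prepubertal and 34.1, 34.7 and 35.7 in adult oocytes, without overlap and close to background on every array. The folate carrier SLC46A1, the ascorbate carriers SLC23A1 and SLC23A2 and the choline carrier family members SLC44A2 and SLC44A4 did not stand above background on all arrays of either group. SLC45A3, of a family of sugar carriers, had 2 probe sets above background, at 96.7 ± 7.63 and 47.6 ± 8.90 in prepubertal and 102 ± 19.1 and 44.9 ± 2.65 in adult oocytes (log2 differences −0.06 and 0.05, then 0.14 and 0.19).

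Of the 15 genes of families classed as intracellular 2 stood above background. The class goes by family, so SLC38A9, SLC31A2 and SLC30A5, which also act inside the cell, were counted in other classes. SLC35B2, which brings the sulfate donor PAPS into the Golgi, had 326, 204 and 134 in prepubertal and 425, 278 and 314 in adult oocytes, so that prepubertal replicate 1 lay within the adult range and the other 2 below it. Its log2 difference was −0.64 ± 0.27 (limma, adjusted p = 0.287), and −0.38 after quantile normalization (adjusted p = 0.570). Without prepubertal replicate 1 it was −0.94 (limma, adjusted p = 0.0259), in a fit where 5.14% of all probe sets passed. Without prepubertal replicate 3, the lowest array, it was −0.35. Over its 23 alternatives the limma adjusted p ran from 0.0215 to 0.931. SLC33A1, the acetyl-CoA carrier of the endoplasmic reticulum, had 42.3 ± 3.50 in prepubertal and 49.7 ± 6.63 in adult oocytes on 1 of 4 probe sets (−0.17, then −0.03). SLC35B3, a second PAPS carrier, had 15.96, 14.7 and 19.8 in prepubertal and 38.1, 31.8 and 32.3 in adult oocytes, without overlap but above background on 2 adult arrays only. SLC35C2 had 2 dim probe sets, above background on 2 and 3 of 6 arrays.

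**Figure D4:**
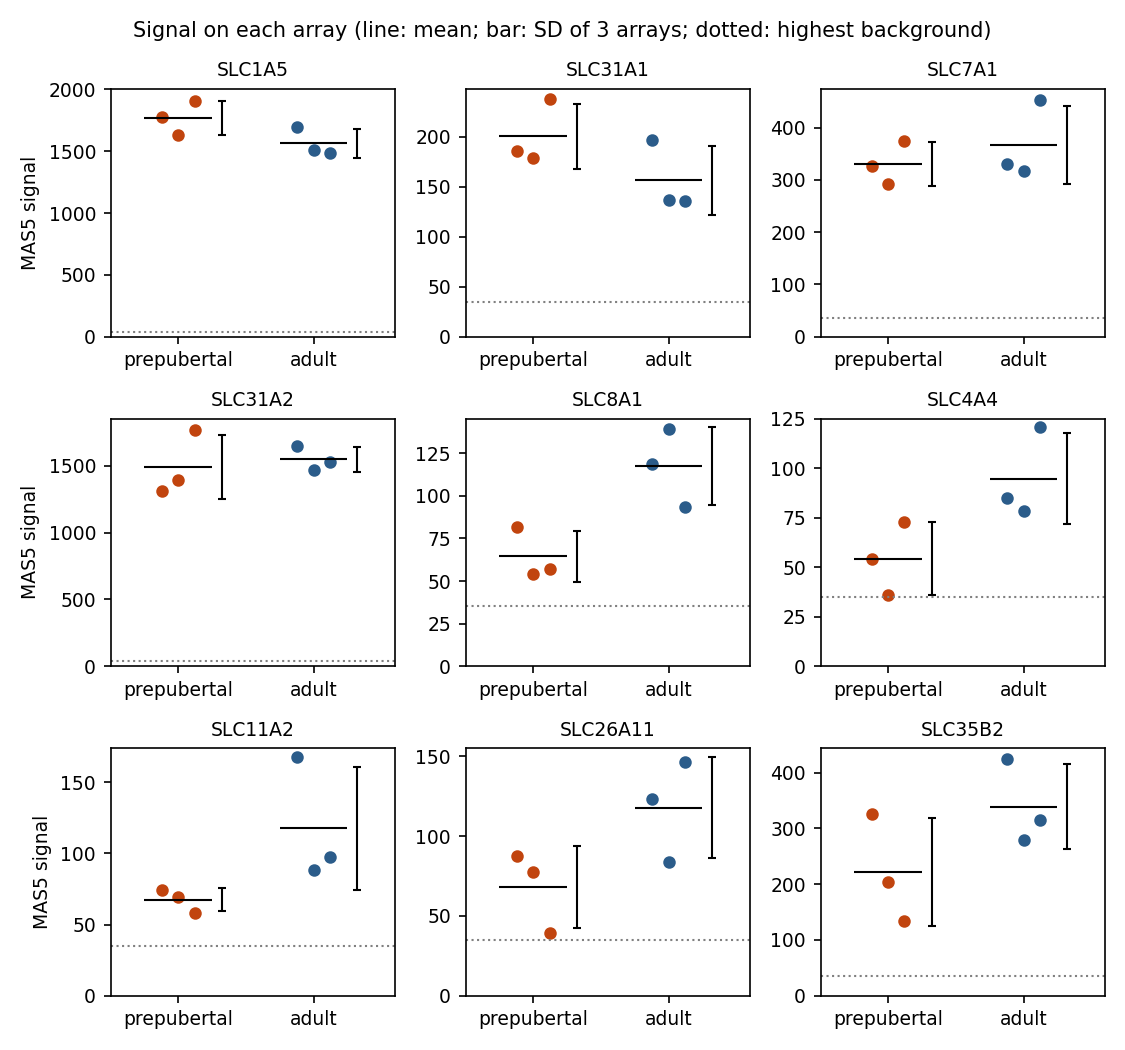
MAS5 signal on each array (vertical axes, as deposited) for 9 solute carrier genes, prepubertal arrays on the left and adult arrays on the right of each panel, with the mean as a line, the SD of 3 arrays as a bar and the highest background level, 35.1, dotted. SLC8A1, SLC4A4 and SLC11A2 show no overlap between groups, and SLC1A5, SLC31A1, SLC7A1, SLC31A2, SLC26A11 and SLC35B2 do overlap.

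Across the whole set, 69 of 139 probe sets, for 53 genes, passed the filter on low signals and were tested. At an unadjusted p under 0.05 in limma, 10 members (14.5%) had lower and 0 higher values as deposited, against 13.6% and 1.14% of all probe sets. The 10 were SLC8A1, SLC4A4, SLC26A11, SLC11A2, SLC35B2, SLC39A2, SLC35B3, SLC45A2, SLC5A10 and SLC6A4, the last 5 of them not above background on all arrays. After quantile normalization 3 members (4.35%) had lower and 3 (4.35%) higher values at that level, against 5.81% and 5.05%: SLC8A1, SLC11A2 and SLC35B3 below and SLC1A5, SLC31A1 and SLC9A5 above. SLC45A2, of the family of SLC45A3, had 16.5, 23.6 and 11.3 in prepubertal and 36.5, 40.7 and 27.5 in adult oocytes. The members' shares lay near those of the array in both settings.

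As deposited 10 members (14.5%) did not overlap between the groups, 9 lower and 1 higher, against 18.9% of all probe sets (17.1% lower and 1.81% higher), and after quantile normalization 11 (15.9%) were without overlap, 6 lower and 5 higher, against 16.3% (8.77% and 7.54%). The median log2 difference was −0.13 over the 69 members, against −0.20 over all probe sets, as deposited, and 0.03 against −0.01 after quantile normalization. Values were lower for 46 of 69 (66.7%) as deposited, against 74.8% of all, and for 29 (42.0%) after quantile normalization, against 51.1%. The sign differed between the settings for 17 of the 69. With array weights 3 members passed in limma, where 10.5% of all probe sets did, and with the replicate number as a block 2 passed, where 7.65% did.

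SLC1A5 had the smallest p of the set after quantile normalization. Its mean was then 1978 in prepubertal and 1440.4 in adult oocytes, without overlap, 1.37-fold higher (log2 difference 0.45, 95% interval 0.18 to 0.72, limma adjusted p = 0.192), while as deposited it was 1771 ± 139 in prepubertal and 1565 ± 116 in adult oocytes (log2 difference 0.18 ± 0.18, limma adjusted p = 0.671). The summed signal of the 6 oocyte markers after quantile normalization was 5402 to 5776 on prepubertal and 4399 to 5117 on adult arrays (log2 difference 0.21, exact permutation p = 0.1), and their part in this result was not tested. Without prepubertal replicate 1 and with quantile normalization it passed (0.55, limma adjusted p = 0.0474; 0.0474 to 0.906 over the 23 alternatives, all with higher values). In that fit 1.62% of all probe sets passed.

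The intervals limit how large a difference these arrays could miss. For 20 of the 25 probe sets above background the 95% interval lay within 2-fold in either direction as deposited, and for 22 after quantile normalization. This does not show equal levels in the groups. The number of eggs behind each array is not given, and fewer transcripts in every egg and fewer eggs that carry them cannot be told apart.

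By background call, 25 solute carrier genes stood above background on all 3 prepubertal arrays and 26 on all 3 adult arrays. SLC22A5, SLC22A6 and SLC9A5 did so in prepubertal oocytes and not on all adult arrays, and SLC3A2, SLC5A10, SLC8B1 and SLC35A3 in adult oocytes and not on all prepubertal arrays. Limma called 0 of these 7. Some of these group calls hang on 1 signal near the level: SLC8B1 missed on prepubertal replicate 2, at 30.4 against 35.1. SLC35A3, like SLC8B1, was above background on 2 prepubertal arrays. The other SLC9A5 probe set was above it on 2 prepubertal and 2 adult arrays. The share of all probe sets above background in 1 group only is not given here, so these calls do not set the carriers apart.

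Genes that work with these carriers were set beside them, from a list of 78 that covers the sodium pump, carrier chaperones, volume signalling, lactate, nucleoside and glutathione enzymes, amino acid sensing and zinc. Of these 43 were measured and 33 tested, on 39 probe sets. In limma 0 passed the threshold in either setting (lowest adjusted p 0.201 and 0.173), against 0.475% and 0.117% of all probe sets. The median log2 difference was −0.13 as deposited and 0.12 after quantile normalization, against −0.20 and −0.01 over all probe sets. Values were lower for 26 of the 39 as deposited, where 74.8% of all probe sets were lower. After quantile normalization they were lower for 17, where 51.1% of all were. ATP1B1, the beta subunit of the sodium pump that sets the gradient for sodium-coupled uptake, had 327 ± 47.5 in prepubertal and 526 ± 83.0 in adult oocytes, without overlap (log2 difference −0.66, −0.39 after quantile normalization), and FXYD6, a small regulator of the pump, had 172 ± 13.6 in prepubertal and 124 ± 77.7 in adult oocytes (0.61, then 0.86). Adult replicate 1 of FXYD6 exceeded all prepubertal arrays, and without adult replicate 2, its lowest array at 43.0, the difference was 0.08. BSG, the chaperone that brings monocarboxylate carriers to the membrane, stood above background at 77.5 ± 13.8 in prepubertal and 93.6 ± 30.6 in adult oocytes (−0.20, then −0.00115). PDZK1, listed beside BSG, had 2615 ± 289 in prepubertal and 2829 ± 227 in adult oocytes (−0.12, then 0.15), and a second probe set under background on every array.

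Among the enzymes, LDHB, which interconverts lactate and pyruvate, had 3301 in prepubertal and 4210 in adult oocytes (log2 difference −0.37, −0.10 after quantile normalization), and the carbonic anhydrase CA12 had 2011 in prepubertal and 2516 in adult oocytes (−0.32, then −0.03). The purine nucleoside phosphorylase PNP had 2176 in prepubertal and 2991 in adult oocytes, without overlap as deposited (−0.44, then −0.17, and −0.27 as deposited without adult replicate 1), and the uridine kinase UCK1 had 39.6 in prepubertal and 56.4 in adult oocytes (−0.37, then −0.23). GCLM, of glutathione synthesis, had 44.7 in prepubertal and 60.3 in adult oocytes (−0.33, then −0.17), and DLD, of glycine cleavage, above background on 5 of 6 arrays, had 44.6 in prepubertal and 68.4 in adult oocytes. These enzymes were picked by p as deposited. After quantile normalization the smallest p of all partners was that of the lactate enzyme LDHC (limma, adjusted p = 0.173). It had 1975 in prepubertal and 1804 in adult oocytes (0.14, then 0.40 without overlap). GCLC, of glutathione synthesis, came next on its brightest probe set, with 2187 in prepubertal and 2041 in adult oocytes (0.09, then 0.36 without overlap). Another GCLC probe set above background had −0.21, then −0.08. RRAGA, a GTPase that signals amino acid supply from the lysosome together with SLC38A9, had 6553 ± 1782 in prepubertal and 4883 ± 504 in adult oocytes (0.39, then 0.54). Prepubertal replicate 1 of RRAGA lay within the adult range, and without it the difference was 0.64 as deposited and passed (limma, adjusted p = 0.00942), as 5.14% of all probe sets did in that fit, while without prepubertal replicate 2 it was 0.25 (limma, adjusted p = 0.730). LAMTOR2, of the lysosomal complex that anchors it, under background on 5 of 6 arrays, had 16.1 in prepubertal and 26.7 in adult oocytes. WNK1 and LRRC8A, of volume control, and the metallothionein MT1A were above background on 2, 5 and 1 of 6 arrays.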

How the data were processed

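Poly(A) RNA of each oocyte sample was amplified in 2 cycles, labelled with biotin and hybridised to 1 Affymetrix porcine array, per the labels' protocols. The deposited values are intensities, MAS5 signals per the submitters' processing notes, on a linear scale; their scaling target and software version were not given in the sources used here, and the array levels differ. Oligo(dT) selection makes signals depend on poly(A) tails as well as on transcript number. Control probe sets (124) were left out. Genes were named from the platform annotation, where 10069 probe sets have 1 symbol, 198 several and 13732 are unnamed here; 5 solute carrier probe sets with several symbols were left out, and 138 of 139 members were found in RefSeq by Entrez identifier.

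From the deposited intensities log2(signal + 16) was computed, probe sets with a mean at or above the median were kept (12000), and a model per probe set was fitted in limma (version 3.58.1, under R 4.3.3; empirical Bayes with intensity trend, no block), with Benjamini-Hochberg adjustment over all 12000 and a threshold of 0.05. Quantile normalization was run beside it. The number of arrays limits the precision. The fit was tested on simulated data. Named genes were, per class, the up to 4 above background with the highest mean, and the 6 smallest p in each direction and setting. Carriers known from oocytes and embryos were added. Partner genes were the 2 with the smallest p as deposited in each role. Others were named after their values were seen. In the list of genes of other organs that sets background, AHSG had 304 to 384 on every array. The members and all lists were chosen with earlier results of these data known. Same-numbered arrays were not treated as pairs.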

Additional observations from a re-analysis of the deposited data

How the results depend on the processing

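As deposited, 0 solute carrier probe sets passed the threshold, and 0 did so with quantile normalization, trimmed-mean scaling, median centring, a constant of 1 or 64, no filter or a stricter one, and without the intensity trend. With array weights 3 passed (SLC26A11, SLC35B2 and SLC8A1, limma adjusted p 0.00909, 0.0215 and 0.0364), where 1259 of all probe sets did, against 57 in the main setting. With the replicate number as a block 2 passed (SLC35B2 and SLC8A1, limma adjusted p 0.0499 and 0.0483), where 918 of all did, and with the block and quantile normalization 0. The deviations of same-numbered arrays correlated at 0.110, 0.058 and 0.029, and 6 of 6 arrays correlated best with their own number. Whether the numbers pair the samples cannot be told from these values, and the main fit used no pairing. Leaving out each array gave 0 to 3 calls as deposited, with 3 without prepubertal replicate 1 (SLC3A2, SLC8A1 and SLC35B2), where 617 of all probe sets (5.14%) passed, and 0 to 1 with quantile normalization, with SLC1A5 without the same array, where 195 (1.62%) passed. Over all probe sets the calls were 14 after quantile normalization, 20 after trimmed-mean scaling, 7 after median centring, 15 with a constant of 1, 173 with the stricter filter, and 1 both without a filter and without the trend. The cause of these shifts was not tested.

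The median log2 difference of the solute carrier probe sets, −0.13, was 0.0332 with quantile normalization, 0.0762 with trimmed-mean scaling and 0.0332 with the block and quantile normalization. Leaving out each array gave −0.22 to −0.05 as deposited and −0.0121 to 0.0716 with quantile normalization (−0.00851, 0.0357 and −0.00281 without prepubertal replicate 1, 2 or 3, and 0.0716, −0.0121 and 0.0325 without adult replicate 1, 2 or 3). The count of genes above background, 22, was 11 where a signal of 100 on every array was asked for, 29, 31 and 25 under the other background rules, and 22 to 23 without each array. The direction was not stable for every named probe set: 14 of 36 had both signs among their alternatives, among them SLC1A1, SLC31A2, SLC7A1 and SLC46A2. Dim signals limit what can be read for carriers under background.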
